A study of Mus musculus with 8 samples.

Results

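From the genes of ketone body metabolism, 6 of the 35275 genes in the deposited tables were followed in fasted mouse liver. They were chosen by name, with earlier results of these data known, for their place in the synthesis of ketone bodies (Acat1, Bdh1), their use (Oxct1, Aacs) and their passage across cell membranes (Slc16a1, Slc16a6). Ketone bodies are acetoacetate and β-hydroxybutyrate (BHB), which hepatocytes make in their mitochondria from acetyl-CoA released by fatty acid oxidation. The liver exports them during fasting as fuel for brain, heart and muscle, and hepatocytes themselves carry little of the enzyme needed to burn them. Acetoacetate can also be activated to acetoacetyl-CoA in the cytosol and then feeds sterol and fatty acid synthesis.

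Liver RNA was sequenced in 4 mice without hepatocyte Pcx (Pcx L-/-) and in 4 Pcx f/f littermates as controls, with 1 library per mouse, to ask what the loss of pyruvate carboxylase (Pcx, which makes oxaloacetate from pyruvate) does to the fasting liver. Both groups were C57BL/6 males, 9 weeks old, kept on chow and fasted for 24 h, and both carried Pcx alleles with a floxed exon 10 made by crossing the EMMA line C57BL/6NTac-Pcx Tm1a to Flpe deleter mice. The Pcx L-/- mice carried in addition Albumin-Cre, for a deletion that the study describes as specific to hepatocytes, and the controls are labelled WT. Reads on genes came to between 12016242 and 20023108 per library. Normalized counts are counts scaled by edgeR's TMM factors, and FPKM values, which are per length of gene and per total of reads, serve to compare levels between genes.

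Pcx itself had between 14371 and 22059 normalized counts in control liver and between 556 and 758 in Pcx L-/- liver, a log2 fold change of -4.80 (SE 0.19, adjusted p = 3.66e-07). Here and in what follows, an adjusted p comes from the quasi-likelihood test of edgeR and was adjusted over all genes tested by the method of Benjamini and Hochberg. Albumin stood at a mean of 33044 FPKM in control and 25861 FPKM in Pcx L-/- liver, and all 8 hepatocyte markers passed the filter on low counts. Of these 8 markers 3 fell (Apoa1, Apob and Serpina1a) and none rose, with a median log2 fold change of -0.61. With 1 library left out the number that fell ranged from 1 to 6, by DESeq2 it was 5, and under scaling by library size alone it was 2 with a median of -0.34. The call was lost for Apob in 10 and for Serpina1a in 9 of 20 alternative fits, and without control replicate 4 Apob went from -0.89 to -0.50. Their summed FPKM ranged from 46136 to 50272 in controls and from 33029 to 41757 in Pcx L-/- mice. Of the 8 macrophage markers Cd68 rose, a call lost in 7 of 20 alternative fits, and the other 7 did not pass the threshold, and no endothelial, stellate, lymphocyte, red cell or muscle and fat marker passed it in either direction by edgeR or DESeq2, while 2 endothelial markers were lower at an unadjusted p under 0.05. The summed red cell markers were highest in Pcx L-/- replicate 1, at 5338 FPKM, against 317 to 1231 FPKM in controls. Control replicate 4 and Pcx L-/- replicate 1 lay farthest from the other 3 libraries of their group, with median absolute log2 differences of 0.28 and 0.23, against 0.13 to 0.21 for the rest. In bulk liver RNA fewer hepatocytes, less RNA per hepatocyte and changes of the single marker genes cannot be told apart, and none of these was tested.

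The stretches before Slc16a1, the only transporter gene with a promoter window, and before Bdh1, the enzyme gene that fell, are shown so that both can be read beside the values that follow. RefSeq promoter windows (GRCm38.p6) matched 4 of the 6 members, with 5 windows among them. Acat1 and Slc16a6 had no window and were not searched for motifs. Each line gives the 250 bases before the annotated start on the plus strand, and capitals mark an E-box (CACGTG).

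Slc16a1, chr3:104638414-104638663, plus strand: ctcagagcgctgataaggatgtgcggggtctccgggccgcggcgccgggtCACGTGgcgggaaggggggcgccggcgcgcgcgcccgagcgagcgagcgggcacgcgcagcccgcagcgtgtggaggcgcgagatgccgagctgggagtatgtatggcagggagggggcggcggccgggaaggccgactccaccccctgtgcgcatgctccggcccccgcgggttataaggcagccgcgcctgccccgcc
Bdh1, chr16:31422047-31422296, plus strand: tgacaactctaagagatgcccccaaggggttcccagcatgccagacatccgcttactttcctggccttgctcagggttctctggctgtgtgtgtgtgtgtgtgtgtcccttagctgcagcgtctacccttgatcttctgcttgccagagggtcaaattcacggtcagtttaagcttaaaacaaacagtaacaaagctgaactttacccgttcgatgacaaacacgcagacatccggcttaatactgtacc

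No annotated exon lies in the Slc16a1 stretch, and 17 bases of the Bdh1 stretch are annotated as exon. The windows, which run on for 50 bases past the start, were searched on both strands for 5 motifs. These were the PPAR direct repeat, the cyclic AMP response element TGACGTCA, the C/EBP-ATF element TGATGNAAT, the sterol response element TCACNCCAC and the E-box CACGTG. The E-box of Slc16a1, 200 bases before the start, was the single match in the 5 windows, and 7.17% of all 32544 RefSeq windows hold one. The other motifs occur in 0.0399% (PPAR direct repeat), 1.8% (cyclic AMP response element), 0.956% (C/EBP-ATF element) and 1.24% (sterol response element) of windows. The Slc16a1 window is 73.7% G or C. Bdh1 has 2 windows, the one shown with 48.3% G or C and a second at chr16:31428503-31428802 with 63.7%, which is not shown because all 250 bases before its start are annotated as exon.

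Both transporter genes rose in Pcx L-/- liver, Slc16a6 by 3.84-fold and Slc16a1 by 1.79-fold, the synthesis enzyme gene Bdh1 fell to 0.602 of control, and Acat1, Oxct1 and Aacs did not pass the threshold. Thus 3 of the 6 members were called at an adjusted p under 0.05, against 27.6% of the 13168 genes tested, with 2 higher (14.1% of genes tested) and 1 lower (13.5%). All 6 passed the filter on low counts, and their median log2 fold change was -0.05, against -0.01 over all genes tested. The values of the genotypes did not overlap for 2 of the 6 members (27.6% of genes tested), namely the 2 transporters. With 4 mice against 4, the smallest p an exact permutation test can give is 0.0286.

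**Figure D1:**
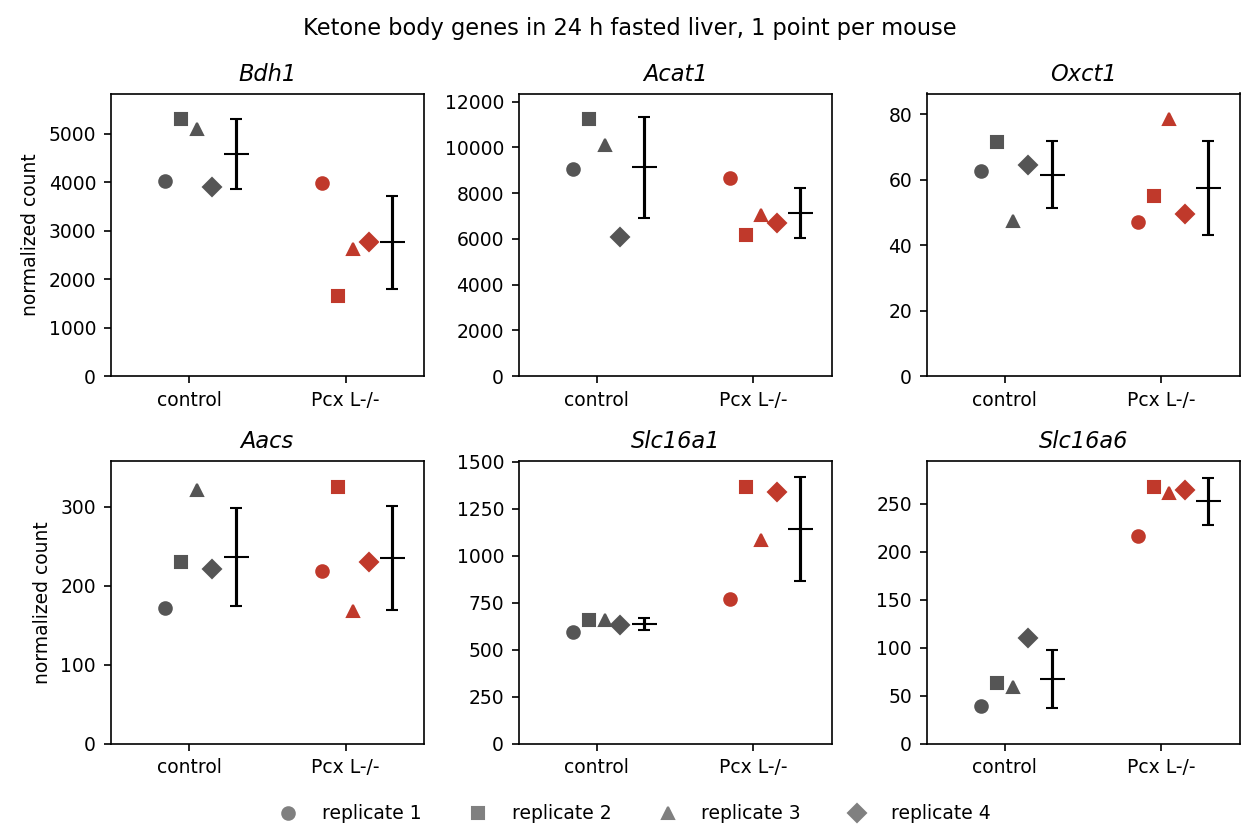
Normalized counts (y axis, linear from 0) of the 6 members in control and Pcx L-/- liver, with 1 point per mouse, the shape giving the replicate, and the mean ± SD beside the points. For Slc16a1 and Slc16a6 all 4 Pcx L-/- mice lie above all 4 controls, and for the other 4 genes the groups overlap.

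Of the synthesis genes, Acat1 encodes the mitochondrial acetoacetyl-CoA thiolase, which joins acetyl-CoA units at the start of the pathway and also splits the last intermediate of isoleucine breakdown. It is listed as ENSMUSG00000032047 and lies at chr9:53580522-53610382 of GRCm38 on the minus strand. Its normalized counts were 9066, 11230, 10103 and 6098 in control replicates 1 to 4 and 8677, 6149, 7047 and 6687 in Pcx L-/- replicates 1 to 4. The groups overlapped, since control replicate 4 was the lowest of the 8 libraries, and the other 3 controls exceeded every Pcx L-/- mouse. The log2 fold change was -0.35 (SE 0.19, 95% interval -0.77 to 0.06, adjusted p = 0.193 by edgeR, exact permutation p = 0.2). Without control replicate 4 it was -0.51 with an adjusted p of 0.0294 by edgeR, so that this library decided whether Acat1 passed the threshold. Under scaling by library size alone the log2 fold change of Acat1 was -0.09 (adjusted p = 0.723 by edgeR).

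Bdh1 encodes the mitochondrial dehydrogenase that converts acetoacetate and BHB into each other with NADH. It is listed as ENSMUSG00000046598 and lies at chr16:31422280-31458901 on the plus strand. Control replicates 1 to 4 had 4029, 5295, 5084 and 3898 normalized counts and Pcx L-/- replicates 1 to 4 had 3977, 1656, 2629 and 2764. Pcx L-/- replicate 1 lay within the control range and the other 3 lay below it. Bdh1 fell by 0.73 on the log2 scale (SE 0.23, 95% interval -1.23 to -0.23, adjusted p = 0.0336 by edgeR), while the exact permutation test on the same values gave p = 0.0571. The call did not hold in 6 of the 8 fits that left out 1 mouse, with adjusted p up to 0.0867 by edgeR, nor under scaling by library size alone (-0.48, adjusted p = 0.0762). Without Pcx L-/- replicate 1 the log2 fold change was -0.96 with an adjusted p of 0.0026. The hepatocyte markers, with their median of -0.61, moved in the direction of Bdh1, and their part in its fall was not tested. Of the annotated exon bases of Bdh1, 13.7% overlap the antisense gene Gm15743, which had a mean of 7.12 normalized counts in control and 7.17 in Pcx L-/- liver.

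Within single libraries the FPKM of Acat1 was 1.43 to 2.06 times that of Bdh1 in controls and 2.0 to 3.41 times that of Bdh1 in Pcx L-/- mice. The 2 ranges overlapped only at their ends.

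Among 7 other enzymes of ketone body synthesis and use, cytosolic counterparts included, 4 were tested, 2 fell and none rose, with a median log2 fold change of -0.71. The 2 were Acat2 (-0.61, adjusted p = 0.0129, a call lost in 4 of 20 alternative fits) and Acat3 (-1.39, adjusted p = 0.00373), both cytosolic thiolases of the Acat family. Acat2 and Acat3 are neighbouring paralogs on chromosome 17, so the division of reads between them is uncertain, and 23.5% of the annotated exon bases of Acat3 overlap Tcp1. Of the 8 thiolases, Acat1 included, 5 fell and none rose, with a median of -0.63. Besides Acat2 and Acat3 these were Acaa2 (-0.81), the thiolase that ends mitochondrial fatty acid oxidation, and the peroxisomal thiolases Acaa1b (-0.76) and Scp2 (-0.65, a call lost in 4 of 20 alternative fits). No gene of the 2 lists was higher by DESeq2 or at an unadjusted p under 0.05 by edgeR. Under scaling by library size alone 1 of the other ketone enzymes fell and 1 rose, and 4 of the 8 thiolases fell and 1 rose. Acat1 also acts in isoleucine breakdown. Of 6 other genes listed for the breakdown of isoleucine and valine, Hsd17b10 (-0.99) and Acadsb (-0.65) fell and none rose, while under scaling by library size alone 2 fell and 1 rose. Of the leucine pathway to acetoacetate, 9 of 10 genes were tested, and Mccc2 (-0.76) and Ivd (-0.68) fell. Mccc2 passed the threshold in all 20 alternative fits, and Ivd missed it in 10, of which 6 left out 1 mouse.

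**Figure D2:**
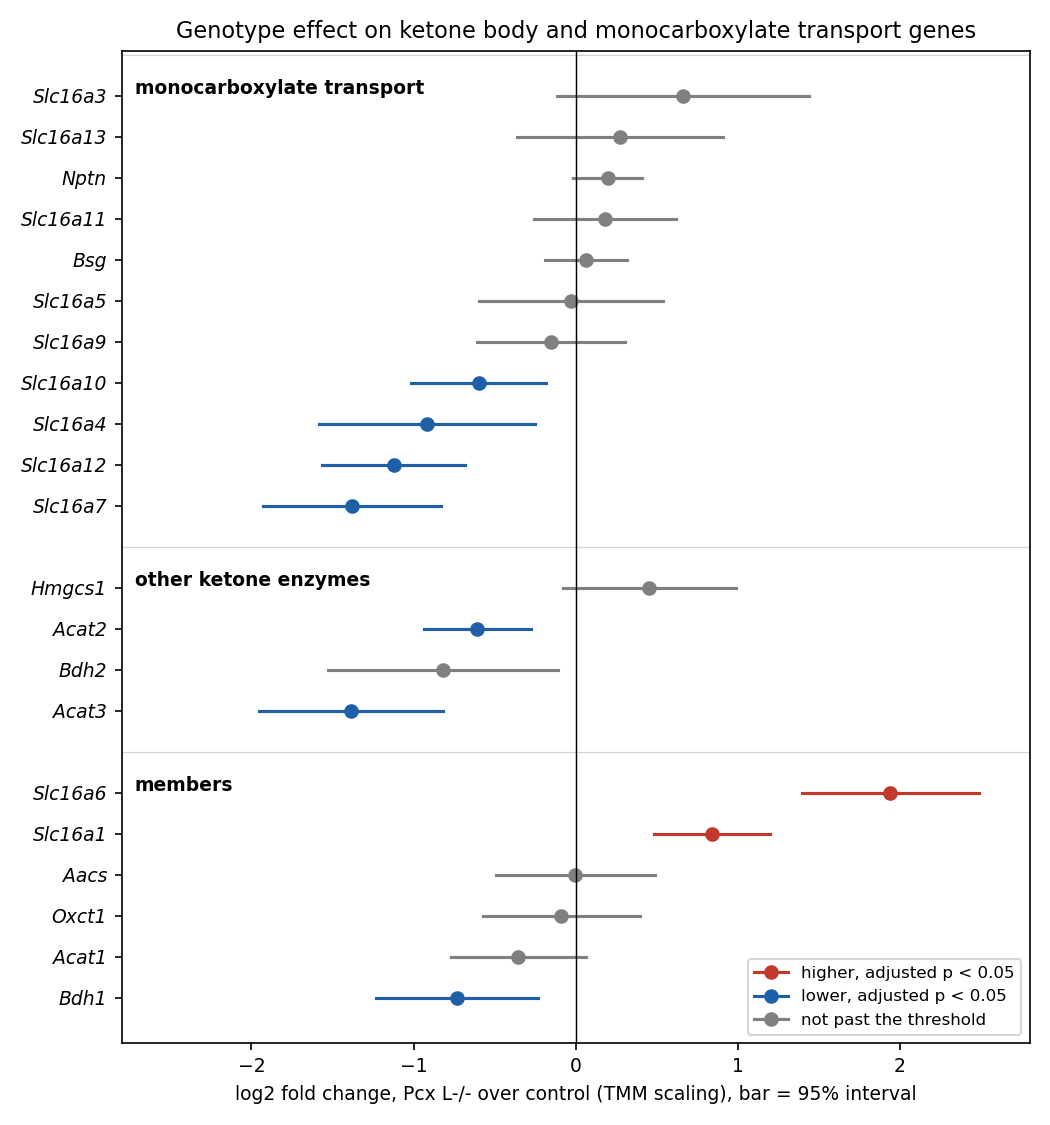
Log2 fold change of Pcx L-/- over control (x axis, TMM scaling) with its 95% interval for the 6 members, 4 other ketone enzymes and 11 monocarboxylate transport genes that are not members, coloured by whether the adjusted p was under 0.05. Slc16a6 at 1.94 and Slc16a1 at 0.84 are the only genes drawn in red as higher.

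Of the genes for use, Oxct1 encodes the mitochondrial succinyl-CoA:3-oxoacid CoA transferase, which tissues other than liver need to burn acetoacetate. It is listed as ENSMUSG00000022186 and lies at chr15:4026383-4155344 on the plus strand. The normalized counts were 62.8, 71.5, 47.3 and 64.5 in control replicates 1 to 4 and 47.2, 55.0, 78.5 and 49.6 in Pcx L-/- replicates 1 to 4. The lowest and the highest value both came from Pcx L-/- mice, and the groups overlapped. The log2 fold change was -0.09 (SE 0.22, 95% interval -0.57 to 0.40, adjusted p = 0.804 by edgeR), and its sign turned to 0.20 under scaling by library size alone. With 38 to 101 reads per library, a change smaller than the interval was not detectable at this depth. In FPKM, Oxct1 stood at 0.931 ± 0.166 in control and 1.07 ± 0.320 in Pcx L-/- liver (SD, n = 4), so that in control liver Bdh1 exceeded it by 68.3 to 121 times within a library. The gene BC037032, which overlaps 12.6% of its annotated exon bases, had a mean of 1.68 normalized counts in control and 1.60 in Pcx L-/- liver.

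Aacs encodes the cytosolic acetoacetyl-CoA synthetase, which brings acetoacetate back into lipid synthesis. It is listed as ENSMUSG00000029482 and lies at chr5:125475814-125517410 on the plus strand. Control replicates 1 to 4 had 172, 230, 321 and 221 normalized counts and Pcx L-/- replicates 1 to 4 had 218, 325, 168 and 230. Both groups spanned nearly the same range. The log2 fold change was -0.00 (SE 0.22, 95% interval -0.49 to 0.49, adjusted p = 0.996 by edgeR), with 0.29 under scaling by library size alone. The interval leaves room for a change of up to 0.49 on the log2 scale in either direction.

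Of the listed synthetases of acetyl-CoA and of other short- and medium-chain acyl-CoA, Aacs included, 9 were tested, with 1 higher and 5 lower. Their median log2 fold change was -0.40, which lies within the interval of Aacs. Under scaling by library size alone 3 were lower with a median of -0.12, and with 1 library left out 2 to 6 were lower. Acss3 (-1.70, adjusted p = 7.98e-04) and Acss2 (-0.89, adjusted p = 0.00564), which make propionyl-CoA and acetyl-CoA, fell most among them. Acsm3 (-0.79), Acsm5 (-0.40) and Acsm1 (-0.40) passed the threshold as well, but their calls were lost in 4, 14 and 11 of 20 alternative fits. Acsf3, the malonyl-CoA synthetase of mitochondria, rose (0.86, adjusted p = 9.64e-04). Of the 18 sterol pathway genes, into which acetoacetyl-CoA from Aacs can pass, 3 rose (Fdps 1.94, Sqle 1.11, Lss 0.77) and 7 fell, with Insig1 (-1.17), Stard4 (-0.98) and Dhcr7 (-0.88) lowest. Sqle missed the threshold in 6 of the 8 fits that left out 1 mouse, and under scaling by library size alone 5 of the 18 rose and 6 fell.

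Of the transporter genes, Slc16a1 encodes MCT1, a proton-coupled carrier of lactate, pyruvate and ketone bodies. It is listed as ENSMUSG00000032902 and lies at chr3:104638668-104658462 on the plus strand, just past the upstream sequence printed above. The 4 controls were close together, at 595, 659, 658 and 633 normalized counts, and Pcx L-/- replicates 1 to 4 had 771, 1366, 1085 and 1339. Every Pcx L-/- mouse was above every control, with replicate 1 the lowest of its group. Slc16a1 rose by a log2 fold change of 0.84 (SE 0.16, 95% interval 0.48 to 1.20, adjusted p = 0.00446 by edgeR, exact permutation p = 0.0286). It passed the threshold in all 20 alternative fits, with log2 fold changes between 0.73 and 1.15. In FPKM it went from 7.68 ± 0.580 to 17.0 ± 5.09 (SD, n = 4), and the SD of the Pcx L-/- group was thus many times that of the controls.

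Slc16a6 encodes MCT7, which in zebrafish is known to carry BHB out of hepatocytes. It is listed as ENSMUSG00000041920 and lies at chr11:109450855-109473598 on the minus strand. Its normalized counts were 39.1, 62.8, 59.1 and 110 in control replicates 1 to 4 and 216, 268, 261 and 265 in Pcx L-/- replicates 1 to 4. The groups did not overlap, and the highest control, replicate 4, was still well below the lowest Pcx L-/- mouse, replicate 1. The log2 fold change was 1.94 (SE 0.25, 95% interval 1.40 to 2.49, adjusted p = 8.20e-04 by edgeR, exact permutation p = 0.0286), the largest of the 6 members. It passed the threshold in all 20 alternative fits, with values between 1.42 and 2.24. In FPKM the level went from 0.844 ± 0.322 to 3.92 ± 0.669 (SD, n = 4).

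Part of the Slc16a6 exons is shared with other genes. Of its 4883 annotated exon bases 21.5% overlap Amz2 and 0.983% overlap Arsg, both on the other strand. Amz2 had a log2 fold change of 0.36 (198 normalized counts in control and 255 in Pcx L-/- liver, adjusted p = 0.0363) and Arsg of 0.65 (adjusted p = 0.0101), both smaller than that of Slc16a6. The sources used here do not say whether the counting used strand, and the part of shared reads in the Slc16a6 value was not tested.

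Within the list of 18 monocarboxylate transporters and their chaperones, 13 were tested. The 2 members were the only ones of these that rose, 4 fell, and the median was 0.06. The 4 were Slc16a7 (-1.38, adjusted p = 0.00321), which encodes the pyruvate and lactate carrier MCT2, Slc16a12 (-1.12, adjusted p = 0.00313), known for creatine transport, Slc16a4 (-0.92, adjusted p = 0.0439) and Slc16a10 (-0.60, adjusted p = 0.0369), a carrier of aromatic amino acids. Slc16a7 and Slc16a12 passed the threshold in all 20 alternative fits, whereas Slc16a4 missed it in 14 and Slc16a10 in 8. Without control replicate 4 Slc16a10 was at -0.35. Under scaling by library size alone 4 of the list rose and 2 fell. Bsg, the chaperone that takes MCT1 to the plasma membrane, had the highest FPKM of the list and did not pass the threshold (log2 fold change 0.06, adjusted p = 0.725), with 5934 ± 334 normalized counts in control and 6198 ± 470 in Pcx L-/- liver (SD, n = 4).

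Macrophage markers summed to 98.1 to 148 FPKM in controls and 123 to 199 FPKM in Pcx L-/- mice. FPKM are scaled by library totals. Under scaling by library size alone the median log2 fold change was 0.33 over the 8 markers and 0.28 over all genes tested. With TMM scaling the median over the 8 markers was 0.04, and their part in the rise of Slc16a1 and Slc16a6 was not tested. The make-up of the Slc16 family by FPKM, taken within each library and given as a description, differed as follows. Slc16a1 made up 6.06% to 7.56% of the summed FPKM of 13 listed family members in controls and 9.25% to 22.6% in Pcx L-/- mice. Slc16a6 went from 0.491% to 1.11% in controls to 2.72% to 4.65%, while Slc16a7 made up 16.6% to 27.5% in controls and 8.93% to 14.4% in Pcx L-/- mice. The ratio of Slc16a1 to Slc16a7 was 0.275 to 0.429 in controls and 0.644 to 2.47 in Pcx L-/- mice. By FPKM Slc16a7 was thus the higher in every control and Slc16a1 in 3 of the 4 Pcx L-/- mice. The gene length behind the FPKM of Slc16a7 is well below its 11839 annotated exon bases, while that of Slc16a1 equals its 4426. The order of the 2 genes therefore rests on the length used, and the shift of their ratio between genotypes does not. All shares given here rest on it too, since Slc16a7 is part of the summed FPKM. A share also moves when other genes of the sum change. Slc16a6 remained the lower of the 2 transporter members in every library, at 0.0690 to 0.183 of the Slc16a1 FPKM in controls and 0.206 to 0.294 in Pcx L-/- mice. The FPKM of these 13 genes summed to 104 to 116 in controls and 91.9 to 108 in Pcx L-/- mice.

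**Figure D3:**
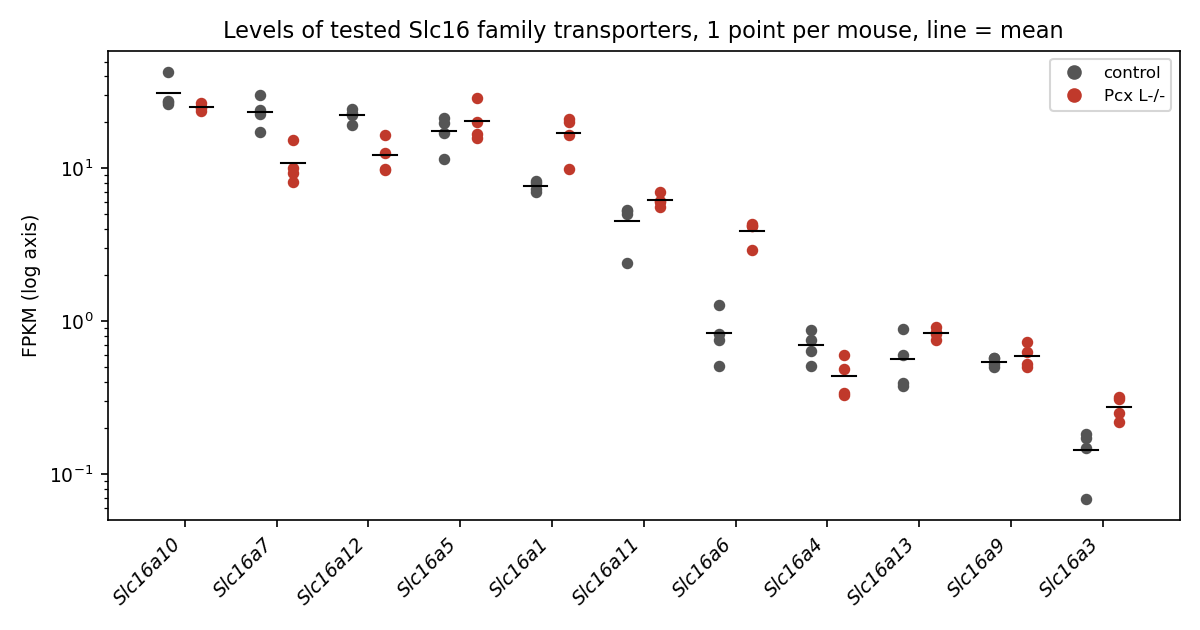
FPKM (y axis, log scale) of 11 tested Slc16 family genes, ordered by control mean, with 1 point per mouse and a line at each group mean. Slc16a1, Slc16a3, Slc16a6 and Slc16a11 are higher in all 4 Pcx L-/- mice than in any control, and Slc16a7 and Slc16a12 are lower in all 4. FPKM are scaled by library totals, and with TMM scaling Slc16a3 and Slc16a11 did not pass the threshold.

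Ordered by FPKM, the members of control liver ran from Acat1 (144 ± 40.7) and Bdh1 (78.6 ± 15.2) over Slc16a1 and Aacs (3.89 ± 1.08) to Oxct1 and Slc16a6. Acat1 and Bdh1 overlapped each other in controls, as did Oxct1 and Slc16a6, and the other neighbours in the order did not overlap. In Pcx L-/- liver the order was Acat1 (135 ± 9.66), Bdh1 (56.4 ± 15.02), Slc16a1, Aacs (4.75 ± 1.51), Slc16a6 and Oxct1, where only Aacs and Slc16a6 overlapped. Slc16a6 had thus moved past Oxct1. Among all genes above 0 it ranked 10848 of 20198 in controls and 7598 of 20735 in Pcx L-/- liver, and Slc16a1 ranked 4770 and 3120. Acat1 and Bdh1 together made up 92.2% to 95.1% of the summed FPKM of the 6 members in controls and 82.7% to 92.6% in Pcx L-/- mice.

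Pcx L-/- replicate 1 was the mouse of its group closest to the controls for Bdh1, Acat1, Slc16a1 and Slc16a6. It had the highest counts of its group for both synthesis enzymes and the lowest for both transporters. It was the 1 Pcx L-/- mouse numbered in the 500s in the labels, beside control replicates 1 and 2, and the other 5 mice were numbered in the 800s. With the number series as a term, the log2 fold change was -0.68 for Bdh1, 0.73 for Slc16a1 and 1.83 for Slc16a6, all still past the threshold. Without Pcx L-/- replicate 1 the log2 fold change was 0.99 for Slc16a1 and 2.01 for Slc16a6, and without control replicate 4 it was 0.84 for Slc16a1 and 2.24 for Slc16a6.

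**Figure D4:**
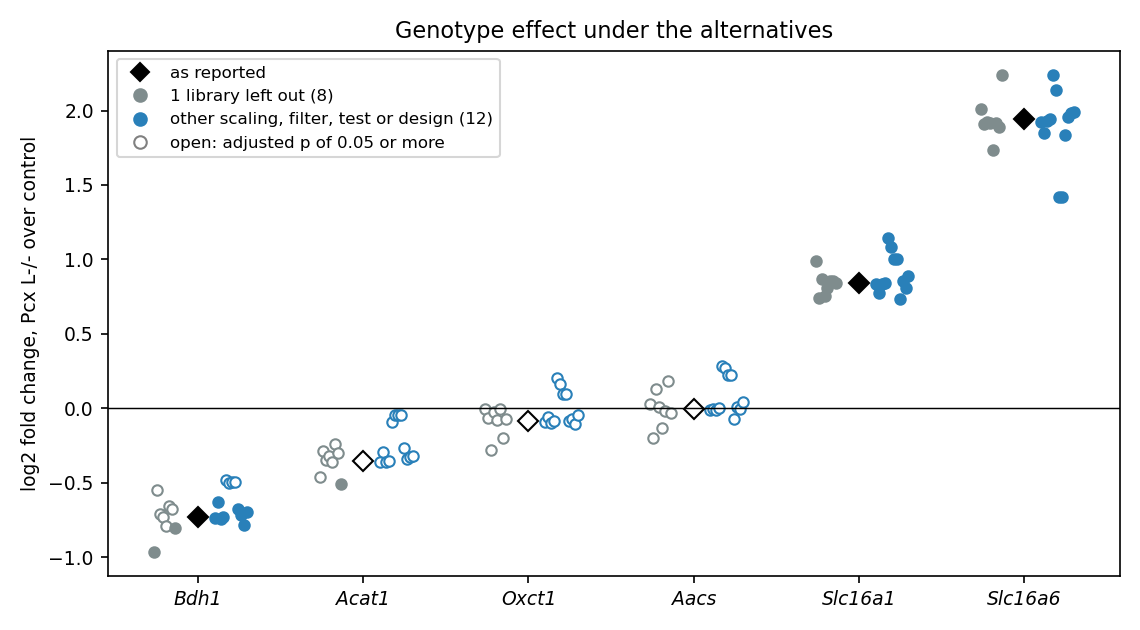
Log2 fold change (y axis) of each member as reported (diamond), with 1 library left out (grey, 8 fits) and under other scalings, filters, tests or designs (blue, 12 fits), where open symbols have an adjusted p of 0.05 or more. All symbols of Slc16a1 and Slc16a6 are filled and above 0, and those of Aacs and Oxct1 are open and lie on both sides of 0.

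Of the 12 regulators of ketone body synthesis in fasting, 1 rose and 2 fell, with a median of -0.27. The fasting hormone gene Fgf21 rose by a log2 fold change of 4.23 (SE 0.52, adjusted p = 7.35e-04 by edgeR). Ppara, the nuclear receptor that drives many fasting genes, fell by 0.52 on the log2 scale (adjusted p = 0.0137 by edgeR), and Insr, the insulin receptor, fell by 0.53 (adjusted p = 0.031 by edgeR). Cpt1a, which admits long-chain fatty acids to mitochondria, had a log2 fold change of -0.15 with an adjusted p of 0.606 by edgeR. Ppara missed the threshold in 5 and Insr in 9 of 20 alternative fits, and under scaling by library size alone 2 of the 12 rose and none fell. Of the 8 genes that sense or use ketone bodies as signals or acyl donors, 5 were tested and only the acyltransferase gene Ep300 passed the threshold (-0.42, adjusted p = 0.0397 by edgeR). That call was lost in 11 of 20 alternative fits, and under scaling by library size alone 1 gene of this list was higher and none lower.

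The genes with the most similar profiles over the 8 libraries were found by the root mean square difference of log2 values after each gene's control mean had been subtracted. For Slc16a6 the nearest genes were Acsl4, which activates long-chain fatty acids, and the transcription factor gene Atf5, both at 0.264. For Slc16a1 they were Rps2-ps10 (0.0608), a ribosomal protein pseudogene whose reads may be shared with its parent, and Gatc (0.0661), a subunit of the mitochondrial glutamyl-tRNA amidotransferase. Rps2-ps10 had means of only 9.25 normalized counts in control and 22.0 in Pcx L-/- liver. Its own log2 fold change was 1.23, against 0.84 for Slc16a1. The added 0.5 CPM shrinks the profile of a gene with so few reads, so its place depends on that constant. Acat1 was followed most closely by the peroxiredoxin gene Prdx1 (0.0686) and the ATP synthase subunit gene Atp5j2 (0.0689), and Bdh1 by the retinol dehydrogenase gene Rdh9 (0.133) and Brdt (0.158). Nearest to Oxct1 were Vav1 (0.102) and Hcls1 (0.105), both known as genes of blood cells, and nearest to Aacs were Zfp60 (0.160) and Inip (0.170). Among the members themselves the closest pair was Bdh1 and Acat1, at 0.405, and the farthest was Bdh1 and Slc16a6, at 1.94. These distances are a description over libraries that share a genotype contrast.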

How the data were processed

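Total liver RNA of 8 mice was measured, and groups came from the sample labels. The authors deposited raw read counts per Ensembl gene on mm10 (GRCm38). The authors also deposited FPKM, of which all 142384 values above 0 equal the count divided by a gene length and the library total (relative tolerance 1e-06), so they carry no correction for composition. The submitters' processing notes name STAR 2.5, HTSeq 0.6.1 and DESeq2. Neither the annotation release nor the use of strand is stated (not given in the sources used here). Symbols from GENCODE M21 matched 34490 of 35275 identifiers.

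Counts were tested with edgeR 4.0.16 (R 4.3.3): TMM factors, filterByExpr (minimum count 10, minimum total 15; 13168 genes kept), glmQLFit and glmQLFTest with no term other than genotype, adjusted by Benjamini-Hochberg over every gene tested, with a threshold of 0.05. Standard errors are approximate, taken from the quasi-likelihood F statistic. The design leaves 6 residual degrees of freedom, to which edgeR adds prior ones estimated over all genes, and p-values and intervals use the total. Totals of 12016242 to 20023108 reads per library limit the precision for Oxct1, Slc16a6 and other genes with few reads. Every gene that passed the threshold was named for lists with at most 6 such genes and otherwise the 3 highest and 3 lowest, with the gene of highest FPKM where wanted. Cpt1a and the genes overlapping a member were added after their values were seen. Hepatocyte, macrophage, endothelial, stellate, cholangiocyte (1 of 5 lower, Sox9), lymphocyte, red cell, and muscle and fat markers were listed as well. Members and lists were chosen with earlier results of these data known, and lists are given by counts and medians, with no test over a list. The steps were tested on simulated counts in which few genes changed. No shift in composition between the genotypes was built in, so the simulation could not check the choice of scaling. Alternatives were other scalings and filters, limma 3.58.1 on log2(FPKM + 1) and log2(FPKM + 0.1), DESeq2 1.42.0 with and without apeglm 1.24.0 as in the study's own method, the series of mouse numbers as a covariate, a replicate block, and each mouse left out in turn. Correlations of same-numbered mice, after removal of group means, were 0.101, -0.131, -0.101 and -0.0703, so the numbers were not taken as pairs. Some genes of the lists are not reported here and were left out of the counts. Protein measurements were not analysed here.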

Additional observations from a re-analysis of the deposited data

Results flagged for a closer look

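Within each genotype, a library was singled out where its gap to the nearest of the other 3 passed the critical value of Dixon for 4 values at the 95% level. Of 80 groups of 4 values checked, 9 did so, and about 1 in 20 does by chance. Among the members this concerned Slc16a6 alone, where Pcx L-/- replicate 1 had 216 normalized counts and the other 3 had 261 to 268. In the same library Mccc2 was high at 960 (others 572 to 608), as were Ivd at 4709 (others 2417 to 2596) and Acadsb at 2134 (others 1355 to 1462). Control replicate 4 was high for Scp2 at 80428 (others 69514 to 70080), Slc16a10 at 4693 (others 2625 to 2720), Ppara at 3858 (others 3238 to 3301), Acadsb at 2727 (others 2426 to 2439) and Apob at 251112 (others 101247 to 124402). All 9 lay in the 2 libraries farthest from the rest of their groups.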

How the results depend on the processing

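Slc16a1 and Slc16a6 passed the threshold, with the same sign, in all 20 alternatives, and leaving out 1 mouse gave 0.74 to 0.99 and 1.73 to 2.24. Bdh1 kept its sign but missed the threshold under library size scaling (-0.48, adjusted p = 0.0762), with limma on log2(FPKM + 0.1) (-0.50, 0.0973) and log2(FPKM + 1) (-0.49, 0.0972), also without a filter (-0.49, 0.164), and in 6 of 8 fits with 1 mouse left out (-0.96 to -0.55 over all 8). Acat1 ranged from -0.51 to -0.24 with 1 mouse left out and passed only without control replicate 4 (-0.51, adjusted p = 0.0294). It kept its sign but shrank to -0.09 under library size scaling (adjusted p = 0.723) and to -0.05 with limma (adjusted p of 0.886 to 0.908). Oxct1 turned to 0.20 under library size scaling and to 0.16, 0.093 and 0.093 with limma, and ranged from -0.28 to -0.01 with 1 mouse left out. Aacs, at -0.00, turned to 0.0004 with at least 1 CPM in 4 libraries, 0.29 by library size, 0.27, 0.22 and 0.22 with limma, 0.012 without a filter and 0.042 with upper-quartile factors, and ranged from -0.20 to 0.19 with 1 mouse left out. None of these Oxct1 or Aacs values passed the threshold.

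Library size scaling raised the median over all genes tested from -0.01 to 0.28 and the calls from 3632 (51.1% higher) to 4785 (81.8% higher), and limma on FPKM, which is scaled by library totals, gave 82.5% to 83.4% higher, so signs of small changes depend on the scaling by construction. Calls ranged from 2109 (without Pcx L-/- replicate 4) to 4602 (without Pcx L-/- replicate 1) with 1 mouse left out, with 2295 without Pcx L-/- replicate 2. Members called were 2 to 4. The replicate block, for numbers that did not pair the mice, gave 2975 calls and Bdh1 -0.78, Acat1 -0.33, Oxct1 -0.11, Aacs -0.01, Slc16a1 0.81 and Slc16a6 1.98, and changed no member's call. Of 680 alternatives over 34 named list genes, 135 lost the call and 0 reversed it.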
